A study of Mus musculus with 4 samples.

Results

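The genes described here encode the core proteins of the microRNA pathway: the Argonautes Ago1, Ago2, Ago3 and Ago4, the TNRC6 scaffolds Tnrc6a, Tnrc6b and Tnrc6c, and the processing factors Dicer1, Drosha and Dgcr8. They were taken by gene symbol from the deposited expression table, and all 10 were present among its 35147 genes. The table measured RNA that came down from the ventricular-subventricular zone (V-SVZ), the stem cell niche along the lateral ventricles of the forebrain, with anti-4E-T or with control IgG. All mice were wild-type CD1 animals at postnatal day 7 or 8, so the antibody was the only labelled difference between the groups. Each group had 2 libraries, 1 from each of 2 numbered experiments, and the experiment number is used here as the replicate number. The labels do not say whether the experiments used separate animals or pools, so every p-value below measures only the spread between these libraries, which may be technical. 4E-T, the product of Eif4enif1, binds the cap-binding protein eIF4E and resides in P-bodies, cytoplasmic granules of repressed mRNA. Levels are FPKM (fragments per kilobase of gene, scaled by library depth) as deposited by the authors. A level is the amount of RNA recovered in a precipitate: no input RNA library was analysed here, so how abundant an mRNA was in the tissue and how well it was recovered cannot be told apart, nor can fewer cells of a type and less RNA per cell.

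MicroRNAs are short RNAs that guide repression of mRNAs. In the nucleus the Microprocessor, made of the RNase III enzyme Drosha and its RNA-binding partner Dgcr8, cuts a hairpin out of the primary transcript, and in the cytoplasm Dicer1 trims that hairpin to a short duplex. One strand is loaded into an Argonaute protein, which binds the target mRNA and recruits a TNRC6 protein. TNRC6 in turn brings in poly(A)-binding protein and the deadenylases, and through the helicase DDX6 the repression machinery that includes 4E-T, so 4E-T acts downstream of the proteins whose mRNAs are measured here.

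A hairpin that lies within a gene of the group shows what these enzymes act on. Mir1306 occupies chr16:18284239-18284317 (GRCm38.p6, minus strand), inside the Dgcr8 gene at chr16:18253948-18289251. Its RefSeq hairpin is printed with the 2 mature arms in capitals, and then each mature arm with its seed, bases 2 to 8, in capitals.
Mir1306 hairpin: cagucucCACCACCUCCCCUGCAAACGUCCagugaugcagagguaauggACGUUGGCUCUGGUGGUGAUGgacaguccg
mmu-miR-1306-5p: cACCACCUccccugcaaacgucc
mmu-miR-1306-3p: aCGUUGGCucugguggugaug
The level of the hairpin was not analysed here, and the sources used here do not say how reads in the stretch that it shares with Dgcr8 were counted.

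Of the 10 mRNAs, Drosha had the highest log2 fold change of 4E-T over IgG, and Tnrc6a was next. The Argonaute mRNAs lay close to the median of all genes, and Tnrc6b lay under it. Drosha stood at the 94.2nd, Tnrc6a at the 84.5th and Tnrc6b at the 22.1st percentile of all tested genes. These positions were not tested against other sets of 10 genes. Without a term for the experiment, 0 of the 10 genes passed limma at an adjusted p under 0.05, and 0 passed at an unadjusted p under 0.05. In that fit 1 of the 17651 genes tested (0.00567%) was called higher and 0% were called lower, while an unadjusted p under 0.05 was reached by 1982 genes on the higher and 315 on the lower side. With the experiment number as a block, 2 of the 10 were called higher, Drosha and Tnrc6a, and 0 lower, beside 17.5% of all tested genes called higher and 4.44% called lower. The share of members called was thus close to that of all genes. Leaving out 1 library, without a block, gave 3 members higher without IgG replicate 2, where 13.8% of all genes were higher and 6.20% lower, and 0 members without IgG replicate 1, where 4.86% were higher and 0.889% lower. It gave 0 members without 4E-T replicate 1 (0.0113% of genes higher, 0.0227% lower) and 0 without 4E-T replicate 2 (0.0113% higher, 0% lower). Each of these fits leaves 1 library in a group, which is assumed to vary like the 2 of the other group, so the calls without IgG replicate 2 rest on the spread between the 4E-T libraries. The blocked fit leaves 1 residual degree of freedom, so its p-values rest on a spread shared across genes, and on simulated libraries it made more false calls than its threshold implies. The median log2 fold change of the 10 genes, 4E-T over IgG on the log2(FPKM + 1) scale, was 0.39, against 0.18 over all tested genes.

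The libraries differed in depth and in scale, and this touches each of these genes. Gene reads recovered from the FPKM numbered 14421019 in IgG replicate 1 and between 23006357 and 28749439 in the other 3 libraries. IgG replicate 1 had the lowest FPKM of the 4 libraries in all 10 members, as it did in 62.1% of all tested genes. Across all tested genes IgG replicate 2 was nearer to 4E-T replicate 2 (Pearson's r 0.947 of log2(FPKM + 1)) than to IgG replicate 1 (r 0.922). The highest r of all pairs, 0.973, was that between the 4E-T libraries. IgG replicate 1 had an r of 0.922 with 4E-T replicate 1. These correlations run across genes, which are not independent replicates. Because depth and scale differed, each gene is also given as RPM, reads per 1000000 gene reads. RPM is a share of its own library that does not use the authors' scaling. The members had between 530 and 6021 reads per library, and the 95% Wilson interval of a share reached from 2.53% to 8.52% to either side of it, for counting error only. The V-SVZ label was checked against markers of its lineage, of which Slc1a3, Sox2, Nes, Egfr, Dlx1, Dlx2, Dcx and Tubb3 each stood at 5.44 FPKM or more in every library. As a share of gene reads, the full lineage list of 9 markers took 0.213% and 0.289% with IgG and 0.214% and 0.198% with 4E-T, which overlapped. Markers of other cell types were summed in 4 lists. Both 4E-T libraries lay below both IgG libraries in the share of all 4 lists, with no marker at 0. Among single tested genes, 25.9% held that position. The share was 0.0510% and 0.0221% with IgG and 0.0120% and 0.0161% with 4E-T for vascular markers, and 0.0456% and 0.0625% against 0.0358% and 0.0324% for microglia. It was 0.197% and 0.319% against 0.155% and 0.174% for oligodendrocytes, and 0.0103% and 0.0125% against 0.00782% and 0.0064% for ependyma. In summed FPKM, 142 and 96.0 with IgG against 43.2 and 68.4 with 4E-T, the vascular list alone kept its groups apart. On that scale single markers did not all follow: Aif1 of the microglia and Pdgfra of the oligodendrocyte lineage were higher with 4E-T within each experiment. The part of these markers in the values below was not tested.

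**Figure D1:**
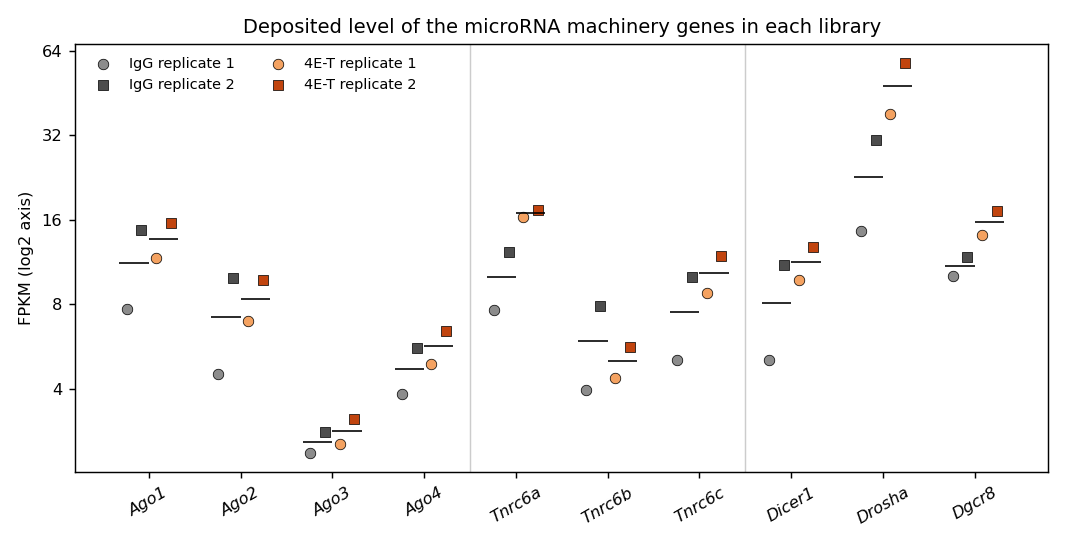
Deposited FPKM (log2 axis) of each gene in the 4 libraries, with a line at each group's mean (n = 2). Grey symbols are IgG, orange and red symbols are 4E-T, circles are experiment 1 and squares experiment 2. IgG replicate 1 is the lowest symbol for every gene, and Drosha is the highest gene, from 14.6 to 57.6 FPKM.

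The 3 processing factors are taken first. Drosha, the nuclear RNase III that starts microRNA processing (chr15:12824804-12935291), had 14.6 and 30.7 FPKM with IgG in experiments 1 and 2, and 37.9 and 57.6 FPKM with 4E-T. Both 4E-T libraries lay above both IgG libraries, and within each group the experiment 2 library was the higher one. The mean was 22.6 ± 11.4 FPKM for IgG and 47.8 ± 13.9 for 4E-T (SD, n = 2 each), a ratio of 2.11. The log2 fold change was 1.10, with an SE of 0.29 and a limma adjusted p of 0.00196 with the block, and with an SE of 0.49 and a limma adjusted p of 0.388 without it. This change was at the 94.2nd percentile of all tested genes.

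As a share of its library, Drosha took 97.8 RPM in IgG replicate 1 (95% interval 92.9 to 103.1) and 122.9 in IgG replicate 2 (118.6 to 127.3). It took 177.2 in 4E-T replicate 1 (171.8 to 182.7) and 209.4 in 4E-T replicate 2 (204.2 to 214.8), so neither the groups nor their intervals overlapped on this scale. The difference was present in each experiment, at 1.32 in experiment 1 and 0.89 in experiment 2 on the log2(FPKM + 1) scale, where the medians of all tested genes were 0.32 and 0.08. Drosha was also called higher with the block after quantile normalization (log2 fold change 0.71, SE 0.15, limma adjusted p = 0.00187) and on log2(RPM + 1) (0.81, SE 0.17, limma adjusted p = 0.00158). It was not called without IgG replicate 1, where the log2 fold change was 0.59 (limma adjusted p = 0.553), and it was called at 1.61 without IgG replicate 2 (limma adjusted p = 0.00412).

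Dgcr8, the Drosha partner that recognises the primary hairpin, stood at 10.1 and 11.8 FPKM with IgG and at 14.1 and 17.2 with 4E-T. The groups did not overlap on the FPKM scale. They did overlap as shares of gene reads, at 66.6 and 46.7 RPM in IgG and 65.2 and 62.0 in 4E-T, with IgG replicate 1 the highest of the 4. The log2 fold change of 0.48 did not pass (SE 0.27, limma adjusted p = 0.197 with the block), and was 0.08 after quantile normalization. Dgcr8 also shares part of its locus with Trmt2a in the RefSeq annotation. The sources used here do not give the strand setting of the counting, so reads from the overlap cannot be told apart.

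Dicer1, the cytoplasmic RNase III (chr12:104687740-104751968), stood at 5.07 and 11.01 FPKM with IgG and at 9.77 and 12.8 with 4E-T. The lower 4E-T library lay under the higher IgG library. As shares of gene reads it took 73.1 and 95.1 RPM in IgG and 98.4 and 100.5 in 4E-T, so the groups were just apart, with 3 of the 4 libraries within a narrow range and IgG replicate 1 below them. Its log2 fold change of 0.52 did not pass (SE 0.26, limma adjusted p = 0.140 with the block). It was 0.02 without IgG replicate 1 and 1.01 without IgG replicate 2, where it was called (limma adjusted p = 0.0371).

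The 2 subunits of the Microprocessor therefore did not stand in a constant ratio across the libraries. The ratio of Drosha to Dgcr8, in FPKM, was 1.45 and 2.6 with IgG and 2.69 and 3.34 with 4E-T. Within experiment 1 it was 1.85-fold higher with 4E-T and within experiment 2 it was 1.28-fold higher. Drosha to Dicer1 went from 2.89 and 2.79 in IgG to 3.88 and 4.49 in 4E-T. A total of 7 ratios between members were compared. With 2 libraries against 2, the exact two-sided permutation test cannot go below 0.333, the value that both of these ratios reached (Benjamini-Hochberg adjusted over the 7 ratios, 0.583).

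TNRC6 proteins, the scaffolds that Argonautes recruit, differed between paralogues in their values. Tnrc6a, the founding GW182 protein (chr7:123031101-123195296), stood at 7.64 and 12.3 FPKM with IgG and at 16.4 and 17.3 with 4E-T. Both 4E-T values lay above both IgG values, and they lay close together. The mean was 9.97 ± 3.30 FPKM for IgG and 16.8 ± 0.628 for 4E-T (SD, n = 2 each). With the block its log2 fold change of 0.73 passed (SE 0.27, limma adjusted p = 0.0303), and without the block it did not (limma adjusted p = 0.459).

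As shares of gene reads, Tnrc6a took 91.5 and 88.3 RPM in IgG and 137.0 and 112.5 in 4E-T, again with no overlap. Experiment 1 gave a difference of 1.01 and experiment 2 of 0.46 on the log2(FPKM + 1) scale. Its call depended on the scaling. With the block it did not pass after quantile normalization (log2 fold change 0.36, limma adjusted p = 0.145), and on RPM it lay just inside the threshold (0.46, limma adjusted p = 0.0491). The fit on RPM was chosen after seeing the data, and the planned limma-voom fit that it replaced called neither Tnrc6a nor Tnrc6b. Without the block it also failed to pass when IgG replicate 1 was left out (0.42, limma adjusted p = 0.634) and passed when IgG replicate 2 was left out (1.04, limma adjusted p = 0.0392). The lncRNA gene Gm39084 overlaps Tnrc6a in the RefSeq annotation and can share reads with it.

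Tnrc6b, a second scaffold of the same family (chr15:80711313-80941086), stood at 3.96 and 7.88 FPKM with IgG and at 4.36 and 5.64 with 4E-T. Both 4E-T values lay between the IgG values on this scale. As shares of gene reads it took 100.5 RPM (95% interval 95.5 to 105.9) and 119.7 (115.4 to 124.0) in IgG, against 77.3 (73.8 to 81.0) and 77.7 (74.6 to 81.0) in 4E-T. On the share scale, then, both 4E-T libraries lay below both IgG libraries, and Tnrc6b was the 1 member of the 10 in that position, beside 25.9% of all tested genes. The log2 fold change was -0.15 on the deposited FPKM (SE 0.25, limma adjusted p = 0.738 with the block), -0.33 after quantile normalization (limma adjusted p = 0.42 with the block) and -0.50 on RPM (SE 0.17; blocked limma fit, adjusted p = 0.0357; without a block, 0.311). The last of these was the 1 call of a member on the lower side, beside 9.65% of all tested genes called lower in that fit. On the deposited FPKM, without a block, the log2 fold change was 0.27 without IgG replicate 2 and -0.57 without IgG replicate 1.

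Tnrc6c, the third scaffold (chr11:117653703-117763439), stood at 5.05 and 10 FPKM with IgG and at 8.79 and 11.9 with 4E-T, which overlapped. Its shares were 85.7 and 101.6 RPM in IgG and 104.2 and 109.5 in 4E-T. The log2 fold change of 0.46 did not pass (SE 0.25, limma adjusted p = 0.195 with the block), while the unblocked value was 0.03 without IgG replicate 1 and 0.89 without IgG replicate 2.

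The make-up of the TNRC6 family in a library does not depend on scaling between libraries. Tnrc6a made up 45.9% and 40.8% of the summed TNRC6 FPKM with IgG and 55.5% and 49.7% with 4E-T. Tnrc6b made up 23.8% and 26.1% in IgG and 14.8% and 16.2% in 4E-T, while Tnrc6c held 30.3% and 33.1% in IgG and 29.8% and 34.1% in 4E-T. The share of Tnrc6a was thus 9.24 percentage points higher in 4E-T than in IgG on average, and that of Tnrc6b moved by -9.46 points. Neither pair of groups overlapped, while those of Tnrc6c did. Shares within a family add up to the whole, so the Tnrc6a and Tnrc6b values are not independent of each other. In the other families the FPKM shares of Ago1, Dicer1 and Drosha also did not overlap, while those of Ago2, Ago3, Ago4 and Dgcr8 did. Dicer1 held 17% and 20.6% in IgG and 15.8% and 14.6% in 4E-T. With 2 against 2 libraries the exact two-sided permutation p cannot go below 0.333, and the shares were not tested. The ratio of Tnrc6a to Tnrc6b was 1.93 and 1.56 in IgG and 3.76 and 3.06 in 4E-T, higher with 4E-T by 1.95-fold within experiment 1 and 1.96-fold within experiment 2. The exact two-sided permutation p for this ratio was 0.333, the smallest that 2 against 2 libraries can give. Tnrc6c to Tnrc6b stood at 1.27 in each IgG library and at 2.02 and 2.11 with 4E-T (exact permutation p = 0.333).

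**Figure D2:**
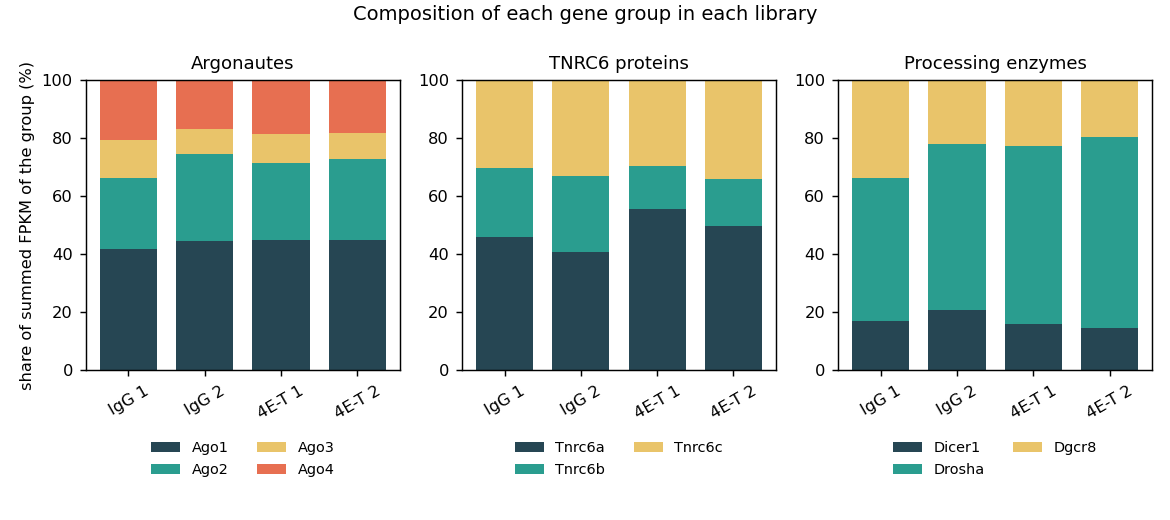
Share (%) of each gene in the summed FPKM of its group, in each of the 4 libraries, for the Argonautes, the TNRC6 scaffolds and the processing factors. Each bar is 1 library and adds to 100. Tnrc6b narrows from 23.8% and 26.1% in IgG to 14.8% and 16.2% in 4E-T, Drosha widens from 49.1% and 57.4% to 61.4% and 65.7%, and Ago1 stays between 41.7% and 44.8%.

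Promoter windows are shown for Drosha and Tnrc6a, the members called together with the block, and for Tnrc6b, which lay on the other side. For each, the 250 bases before a start listed in RefSeq are printed (GRCm38.p6, plus strand), with matches to CCAAT or its reverse complement ATTGG in capitals, searched on both strands. The window of Drosha is chr15:12824565-12824814, that of Tnrc6a chr7:123123635-123123884, which lies inside the annotated gene and belongs to an internal start, and that of Tnrc6b, the upstream one of 2 starts listed, chr15:80711063-80711312.
Drosha: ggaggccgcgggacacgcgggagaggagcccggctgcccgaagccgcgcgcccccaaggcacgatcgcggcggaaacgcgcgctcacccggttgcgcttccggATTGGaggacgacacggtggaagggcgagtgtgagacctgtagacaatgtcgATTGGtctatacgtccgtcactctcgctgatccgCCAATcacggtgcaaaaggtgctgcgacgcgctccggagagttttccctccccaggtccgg
Tnrc6a: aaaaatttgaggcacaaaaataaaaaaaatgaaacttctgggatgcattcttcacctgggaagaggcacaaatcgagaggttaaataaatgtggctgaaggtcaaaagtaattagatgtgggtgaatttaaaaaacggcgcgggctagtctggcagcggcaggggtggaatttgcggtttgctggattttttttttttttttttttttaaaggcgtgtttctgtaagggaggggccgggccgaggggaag
Tnrc6b: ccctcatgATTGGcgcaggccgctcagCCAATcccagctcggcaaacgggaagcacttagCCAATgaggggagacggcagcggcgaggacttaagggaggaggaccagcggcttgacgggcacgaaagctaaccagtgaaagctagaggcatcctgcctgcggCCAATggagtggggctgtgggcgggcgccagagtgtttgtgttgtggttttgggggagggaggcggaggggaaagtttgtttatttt
The Drosha window held 3 matches, the Tnrc6a window 0 and the Tnrc6b window 4, and their G and C content was 66.4%, 42.4% and 60%. The letters were present in 33.8% of the 32851 promoter windows of the same length in the RefSeq set. Since the Tnrc6a window is of another kind of start than the other 2, the 3 are not compared further. The match is a description of these letters and says nothing of the recovery of an mRNA by an antibody.

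The Argonaute mRNAs lay close to the median of all genes. Ago2, the Argonaute with slicer activity and the one encoded apart from the others (chr15:73101625-73184947), stood at 4.52 and 9.89 FPKM with IgG and at 6.97 and 9.74 with 4E-T. Both 4E-T values lay between the IgG values, on the FPKM scale and as shares of gene reads, where they were 97.6 and 106.2 RPM against 90.6 and 118.8 in IgG. Its log2 fold change of 0.25 did not pass (SE 0.25, 95% interval -0.24 to 0.75 with the block, limma adjusted p = 0.538), and it was 0.00 after quantile normalization. The lncRNA gene Gm31725 overlaps Ago2 in the annotation and can share its reads.

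Ago1, Ago3 and Ago4 are neighbours on chromosome 4, where no other annotated gene lies between them. Ago3 is at chr4:126326994-126431670, Ago1 at chr4:126435012-126468707 and Ago4 at chr4:126489487-126533586, with gaps of 3341 and 20779 bases. Ago1, which represses its targets without slicing them, stood at 7.67 and 14.7 FPKM with IgG and at 11.7 and 15.6 with 4E-T. Ago4 stood at 3.84 and 5.56 FPKM with IgG and at 4.90 and 6.42 with 4E-T. Ago3 stood at 2.36 and 2.80 FPKM with IgG and at 2.54 and 3.11 with 4E-T. In all 3 genes the groups overlapped, and the lower 4E-T library lay under the higher IgG library.

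Their log2 fold changes on the deposited FPKM were 0.31 for Ago1 (95% interval -0.20 to 0.83 with the block), 0.23 for Ago4 (-0.25 to 0.72) and 0.09 for Ago3 (-0.41 to 0.60). The limma adjusted p with the block was 0.446, 0.575 and 0.860 in that order. The intervals leave room for differences in either direction, so these values do not show that the Argonaute mRNAs were recovered alike. Relative to the median of all tested genes the 4 Argonautes ranged from -0.09 for Ago3 to 0.13 for Ago1. The sign of single Argonautes turned with the scaling: Ago1 was at -0.04 after quantile normalization, and Ago2, Ago3 and Ago4 were at -0.03, -0.20 and -0.05 on RPM. As shares of gene reads Ago3 was highest in IgG replicate 1, at 53.9 RPM, against 38.3 in IgG replicate 2 and 40.5 and 38.6 with 4E-T.

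Within the Argonaute family Ago1 took the largest share of summed FPKM in each library, at 41.7% and 44.6% in IgG and 44.8% and 44.7% in 4E-T. Ago2 followed at 24.6% and 30% in IgG and 26.7% and 27.9% in 4E-T. The ratio of Ago1 to Ago2 was 1.70 and 1.49 in IgG and 1.68 and 1.60 in 4E-T (exact two-sided permutation p = 1.0). Ago paralogues are related in sequence, and the sources used here do not say how reads that match more than 1 of them were counted.

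**Figure D3:**
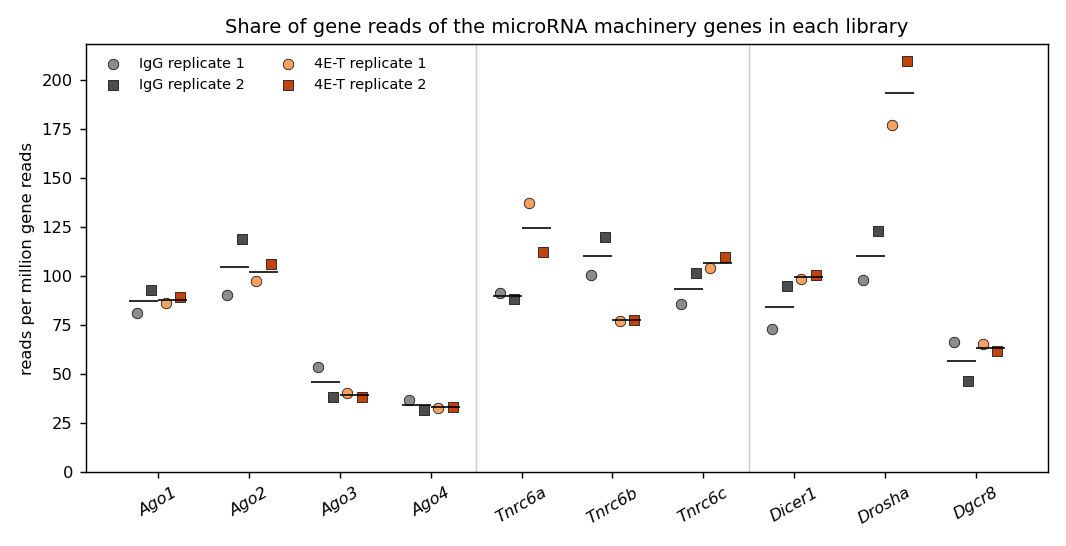
RPM, reads per 1000000 gene reads, of each gene in the 4 libraries, with a line at each group's mean (n = 2) and symbols as in the FPKM plot. Drosha lies at 97.8 and 122.9 in IgG and at 177.2 and 209.4 in 4E-T, Tnrc6b lies lower in 4E-T than in IgG, and the 4E-T symbols of Ago1 and Ago2 lie between the IgG symbols.

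Over the 10 genes, both 4E-T libraries lay above both IgG libraries in FPKM for 3 (Drosha, Tnrc6a and Dgcr8), beside 32.6% of all tested genes, and below for 0, beside 8.13%. As shares of gene reads they lay above for 4 (Drosha, Tnrc6a, Tnrc6c and Dicer1), beside 22.9% of all tested genes, and below for Tnrc6b. On the FPKM scale the share of members above is near that of all genes. On the RPM scale the 1 member below stands beside 25.9% of all tested genes. With only 10 members no direction is read from these RPM counts, and they were not tested. Scaling moved the median log2 fold change of all tested genes from 0.18 on the deposited FPKM to -0.02 after quantile normalization and -0.09 on RPM. Relative to those medians, Drosha stood at 0.92, 0.73 and 0.89, Tnrc6a at 0.55, 0.38 and 0.55, and Tnrc6b at -0.34, -0.32 and -0.41. The order of these 3 genes was the same under each of the 3 scalings. FPKM and RPM differ by a factor per library, shared by all genes, and a factor per gene. Apart from the added pseudocount, a change of order between FPKM and RPM was therefore not possible, and their agreement is no separate check. Only quantile normalization could have changed the order, and the 3 genes were singled out by these same values.

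**Figure D4:**
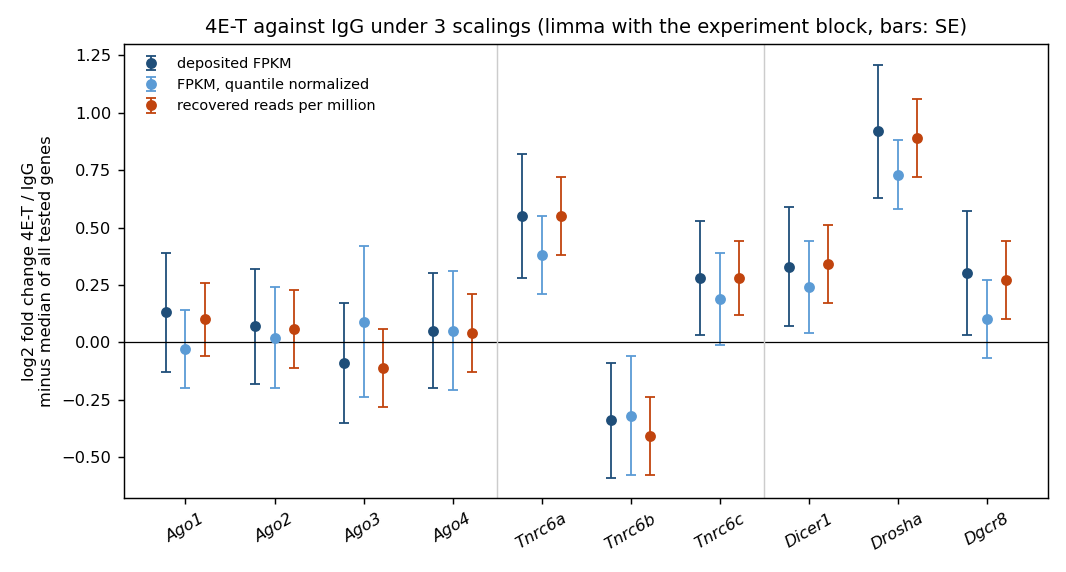
Log2 fold change of 4E-T over IgG minus the median of all tested genes, with bars of 1 SE from limma with the experiment block, under 3 scalings. Drosha stands between 0.73 and 0.92 and Tnrc6b between -0.41 and -0.32, while the Argonautes lie between -0.11 and 0.13.

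By level, which FPKM allows to be compared between genes, Drosha was the highest of the 10 in both precipitates. In IgG the order was Drosha, Ago1, Dgcr8, Tnrc6a, Dicer1, Tnrc6c, Ago2, Tnrc6b, Ago4 and Ago3, from 22.6 to 2.58 FPKM. The ranges of neighbours over the 2 libraries overlapped for every pair except Ago4 and Ago3. The libraries differed in scale, so such an overlap need not hold within a library. Drosha stood at 14.6 FPKM against 7.67 for Ago1 in IgG replicate 1, and at 30.7 against 14.7 in IgG replicate 2. In 4E-T the order was Drosha, Tnrc6a, Dgcr8, Ago1, Dicer1, Tnrc6c, Ago2, Ago4, Tnrc6b and Ago3, from 47.8 to 2.82 FPKM. There Drosha was clear of Tnrc6a, Ago2 of Ago4, and Tnrc6b of Ago3, and the other neighbours overlapped. Tnrc6a moved from the fourth place to the second and Tnrc6b from the eighth to the ninth.

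The authors' deposited table gives its own DESeq2 comparison of 4E-T with IgG for these genes. In the authors' deposited table Drosha had a log2 fold change of 1.12 (SE 0.27, DESeq2 adjusted p = 0.00117) and Tnrc6a one of 0.77 (SE 0.28, adjusted p = 0.0499), close to the threshold of 0.05. The other 8 did not pass in the authors' deposited table, where 10.7% of genes with an adjusted p were called higher and 2.61% lower. Their adjusted p in the authors' deposited table ran from 0.201 for Dicer1 to 0.866 for Ago3, and Tnrc6b had a log2 fold change of -0.20 there.

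The proteins that surround this core were looked at in 4 lists. Factors that process, edit, tail or degrade microRNA precursors had 17 genes tested of 18 in the table. With the block 8 of them were called higher and 0 lower, beside 17.5% of all genes called higher. Their median log2 fold change was 0.58 against 0.18 over all genes, and without the block 0 passed limma (4 at an unadjusted p under 0.05). Ddx5, a helicase that associates with the Microprocessor, stood at 147 and 153 FPKM with IgG and at 379 and 419 with 4E-T (log2 fold change 1.40, blocked limma fit, adjusted p = 0.000117). Its paralogue Ddx17 stood at 24.9 and 24.2 FPKM with IgG and at 53.7 and 79.0 with 4E-T (1.37, adjusted p = 9.75e-05 in the same limma fit). The groups were well apart in both helicases. Ilf2, a double-stranded RNA-binding factor, had a log2 fold change of 1.23 and Srrt, which links the nuclear cap-binding complex to primary microRNA processing, one of 0.99, and both passed with the block. The lowest of the list were Lin28b, which blocks let-7 maturation, at 0.15, and Ran, the GTPase that drives hairpin export, at 0.20, neither of which passed. On other scalings with the block 5 of the 17 were called higher after quantile normalization, where 10.4% of all genes were higher and 9.23% lower, and 6 on RPM, where 12.6% were higher and 9.65% lower.

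Chaperones that load Argonautes and proteins that bind them had 16 genes tested of 17. With the block 4 were called higher and 0 lower, beside 17.5% and 4.44% of all tested genes, with a median log2 fold change of 0.49 against 0.18 over all genes, and without the block 0 passed limma (2 at an unadjusted p under 0.05). Hsp90aa1, a chaperone of Argonaute loading, stood at 63.1 and 142 FPKM with IgG and at 149 and 384 with 4E-T (log2 fold change 1.33, blocked limma fit, adjusted p = 0.00028). Its groups were just apart, and experiment 2 was higher in each. Hsp90ab1 had a log2 fold change of 0.85 and passed with the block, but stood at 0.01 without IgG replicate 1 and did not pass on RPM (limma adjusted p = 0.0801 with the block). Gigyf2, a translational repressor found with 4EHP, stood at 11.1 and 13.7 FPKM with IgG and at 22.4 and 24.8 with 4E-T (0.88, limma adjusted p = 0.00995 with the block). Rbm4, at 0.72, passed with the block on the deposited FPKM but not after quantile normalization (limma adjusted p = 0.153) or on RPM (limma adjusted p = 0.0934). Ptges3, the p23 co-chaperone, was the lowest at -0.09, followed by Ajuba, an adaptor of the LIM domain family, at 0.03. Once quantile normalized, Ptges3 was called lower with the block (-0.45, limma adjusted p = 0.0317), beside 9.23% of all tested genes.

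Effectors downstream of TNRC6 had all 28 listed genes of the table tested. With the block 5 were called higher and 0 lower, beside 17.5% and 4.44% of all tested genes. The share called higher was near that of all genes, and the median log2 fold change was 0.36. Without the block 0 passed limma (4 at an unadjusted p under 0.05). Cnot3, a subunit of the CCR4-NOT deadenylase, stood at 9.88 and 9.62 FPKM with IgG and at 27.2 and 23.0 with 4E-T (1.28, blocked limma fit, adjusted p = 7.19e-05). Cnot2, at 1.03, and Cnot10, at 0.96, belong to the same complex and passed as well. The other CNOT subunits of the list did not pass with the block, and their log2 fold changes ran from -0.03 to 0.62. Dcp1b, a decapping cofactor, stood at 5.65 and 5.87 FPKM with IgG and at 13.0 and 12.6 with 4E-T (1.03, limma adjusted p = 0.00071 with the block). The lowest were Pabpc1, the poly(A)-binding protein that TNRC6 contacts, at -0.20, and Edc3, an enhancer of decapping, at -0.06. Pabpc1 stood at 61.4 and 121 FPKM with IgG and at 68.1 and 82.4 with 4E-T, which overlapped, and with the block it was called lower once quantile normalized (-0.51, limma adjusted p = 0.0182) and on RPM (-0.53, limma adjusted p = 0.0342).

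Host genes of microRNAs had 9 tested of 10 in the table, with 0 called without the block (limma, 1 at an unadjusted p under 0.05). Their median log2 fold change was 0.52 against 0.18 over all genes, and with the block 1 of 9 was called higher and 0 lower, beside 17.5% and 4.44% of all genes. Meg3, the imprinted long non-coding RNA of a locus rich in microRNAs, was that gene, at 132 and 141 FPKM in IgG and 349 and 437 in 4E-T (log2 fold change 1.51, limma adjusted p = 2.81e-05). Mir9-3hg and Mir124-2hg, hosts of the neural microRNAs miR-9 and miR-124, were the lowest, at 0.01 and 0.10. Mir124-2hg stood at 7.28 and 7.73 FPKM with IgG and at 8.92 and 7.33 with 4E-T, and the groups overlapped.

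The mean profile of the 10 genes, as log2(FPKM + 1) centred on each gene's mean, was -0.55 and 0.15 for IgG and 0.03 and 0.37 for 4E-T, in experiments 1 and 2. Its larger step lay between IgG replicate 1 and the other 3 libraries. Of the 70 genes tested in the 4 lists, the nearest to it by Euclidean distance over the 4 libraries were Lsm14a (distance 0.113), Fmr1 (0.134) and Eif4e2 (0.135). The likeness is a description over 4 libraries.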

How the data were processed

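RNA precipitated with anti-4E-T or anti-IgG from V-SVZ was sequenced in 4 libraries, after a MAGNA RIP kit, SMART-Seq v4 and Nextera XT, per the labels' protocols. The submitters' processing notes name STAR 2.6.0c, DESeq2 1.26.0, HTSeq 0.6.1p2, DESeq, Trim Galore 0.5.0 and FastQC 0.11.5, with build mm10. The sources used here do not give the annotation release, the strand setting or the model behind the comparison. For each library the authors deposited FPKM. Per the file headers, the authors' DESeq2 columns hold, for each gene, the mean normalized signal, the linear fold ratio, the log2 fold change and its SE, the p-value (raw and adjusted) and the Wald score.

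The 17651 genes whose FPKM averaged 1 or more were fitted on log2(FPKM + 1) by limma 3.58.1 (R 4.3.3), a scale that understates the change of low genes. Antibody was the only term, moderation was trended and robust, tests were two-sided, and a gene was called at an adjusted p under 0.05 (Benjamini-Hochberg, all tested genes). The experiment number was added as a block in an alternative. Same-numbered libraries deviated together from their group means (r = 0.672 across genes, and 0.491 after quantile normalization), and the titles give each pair a shared experiment, read as a batch, so blocked values are printed. Within a gene the FPKM are whole multiples of the worth of 1 read. With the authors' mean signal this gave back reads, whole within 0.05 reads for 100% of values. RPM, reads per 1000000 gene reads, were fitted with limma as log2(value + 1), with and without the block. This fit was added after seeing the data, in place of a planned limma-voom fit with TMM scaling, since count tools were kept to deposited counts. Intervals of shares of reads are Wilson intervals. The fits were tested on simulated data, where the blocked fits of FPKM made more false calls than their threshold implies.

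All 10 members are named. From each list the text names up to 4 genes that passed with the block, by the size of their log2 fold change, and the 2 lowest, and over all lists the 3 nearest to the mean profile of the members. The members and lists were chosen with earlier results of these data known. RefSeq sequences and loci are from GRCm38.p6. All 10 members matched by symbol, and 9 had a promoter entry.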

Additional observations from a re-analysis of the deposited data

How the results depend on the processing

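The count of members called higher was 0 without a block. It was 2 with the replicate block (Drosha and Tnrc6a), 1 after quantile normalization with the replicate block (Drosha) and 2 on RPM with the replicate block (Drosha and Tnrc6a). Without a block it ran from 0 to 3 when 1 library was left out, the 3 being Drosha, Tnrc6a and Dicer1 without IgG replicate 2. Of the members called lower there were 0, except 1, Tnrc6b, on RPM with the replicate block. The planned limma-voom fit of recovered reads with TMM scaling is not reported: it was run first, called Drosha and neither Tnrc6a nor Tnrc6b with the block, and was replaced after seeing the data by RPM, so those calls on that scale depend on the choice of fit. Over all genes, 1 higher and 0 lower were called without a block. The counts were 3090 and 784 with the replicate block, 1843 and 1630 after quantile normalization with the block, and 2216 and 1703 on RPM with the block. Without a block, 0 genes were called higher with no filter, after quantile normalization and on RPM. Leaving out 1 library gave 2 to 2441 higher and 0 to 1094 lower. The cause of these differences was not tested.

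Of 110 member values under the alternatives, 12 changed sign, none of them a call. Ago1 was at -0.04 after quantile normalization, with or without the block. Ago2, Ago3 and Ago4 were at -0.03, -0.20 and -0.05 on RPM, with or without the block. With 1 library left out, Ago1 ran from -0.11 to 0.74, Ago2 from -0.24 to 0.75, Ago3 from -0.01 to 0.20 and Tnrc6b from -0.57 to 0.27. Drosha, Tnrc6a, Tnrc6c, Dicer1 and Dgcr8 each kept their sign under all 11 alternatives, with Drosha running from 0.59 to 1.61. When 1 library was left out, an alternative chosen after seeing the data, the difference in share within the family ran from 6.34 to 12.1 percentage points for Tnrc6a, -10.6 to -8.31 for Tnrc6b and 6.16 to 14.4 for Drosha.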

Other observations

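Length and annotation of the 10 genes differ in ways that bear on single values. The length over which the authors counted each gene, read from reads per unit of FPKM and set to 1.0 in Drosha, ran from 0.989 in Dgcr8 to 3.79 in Tnrc6b, with Ago3 at 3.41 and Ago2 at 3.0. Tnrc6b therefore ranked low per length but had 1450 to 2965 reads per library. CCAAT or ATTGG occurred in the 250 bases before a RefSeq start in 6 of 11 promoter windows of the members (54.5%, against 33.8% of all windows). Dgcr8 and Tnrc6b had 4 matches each, Drosha 3, and Dicer1 and both Ago1 windows 1, and the 2 Ago1 windows overlap each other. The microRNA gene Mir5113 lies within Tnrc6b in the annotation.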
